A study of Mus musculus with 7 samples.

Results

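The genes described here are 50 genes of DNA replication and of the step from G1 into S phase, of 22738 gene rows counted by RNA sequencing in mouse epicardial explants. They were chosen by name from a fixed list of symbols, each of which matched 1 row of every table, and all 50 passed the filter on low counts that left 10775 genes for testing. Epicardial cells cover the surface of the heart and grow out from ventricles placed on gelatin. Ventricles from E12.5 embryos were cultured for 48 hours, the hearts were removed, and the outgrowth was kept for a further 72 hours before RNA extraction. There were 3 libraries from Lmnb1-/- explants, which lack the nuclear lamina protein lamin B1, and 4 from wild type explants. Both groups were on the same mixed background of C57BL/6, 129S4Sv/Jae and 129S6/SvEvTac and neither was treated. The labels number the replicates without saying whether they came from separate embryos, so the p-values measure only the spread between these libraries, which may in part be technical. The series concerns the timing of epicardial cell migration and the part lamin B1 has in it.

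Before S phase, the origin recognition complex, with CDC6 and CDT1, loads the ring of MCM2 to MCM7 onto DNA, which licenses an origin. CDC45 and the GINS complex then join the ring to form the moving helicase, and DNA polymerases alpha, delta and epsilon copy the strands behind it. PCNA is a sliding clamp for polymerases delta and epsilon. E2F transcription factors, released when cyclin E kinase and the D cyclin kinases inactivate the RB family, switch many replication genes on late in G1. The RNA levels of such genes follow the share of cells that are cycling.

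Total counts ran from 1786519 to 3066936 in Lmnb1-/- libraries and from 1024898 to 2732236 in wild type libraries, with wild type replicate 2 the shallowest. Levels are CPM, read counts relative to library totals scaled by TMM. At these depths 3 counts made 0.965 to 1.68 CPM in Lmnb1-/- libraries and 1.13 to 3.10 CPM in wild type libraries. Lmnb1 itself was at 1.12 to 2.06 CPM in Lmnb1-/- libraries, against 184 to 239 CPM in wild type libraries, as labelled. All 10 epicardial markers were counted in all 7 libraries, with a summed level of 1720 to 2110 CPM in Lmnb1-/- and 2150 to 2950 CPM in wild type libraries. Markers of other cell types were also counted. Smooth muscle and pericyte markers, which epicardium-derived cells can also express, summed to 8070 to 8810 CPM in Lmnb1-/- and 10800 to 12000 CPM in wild type libraries. Cardiomyocyte markers summed to 455 to 612 CPM in Lmnb1-/- and 408 to 812 CPM in wild type libraries. Among them Myh7 had 0 counts in all 7 libraries in the count column used here. The tables' other count column held 100% of its counts, so the 0 does not show that Myh7 RNA was absent. Macrophage and leukocyte markers summed to 34.4 to 381 CPM in Lmnb1-/- and 49.6 to 218 CPM in wild type libraries. Endothelial markers summed to 26.4 to 40.4 CPM in Lmnb1-/- and 20.7 to 48.5 CPM in wild type libraries, and erythroid markers to 21.5 to 230 CPM in Lmnb1-/- and 17.3 to 196 CPM in wild type libraries. By Xist and Y-linked genes, all 3 Lmnb1-/- libraries were male, as were wild type replicates 2 and 4, and wild type replicates 1 and 3 were female.

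The start regions of some of these genes carried E2F letters, a feature that the choice by name had not used. RefSeq gave a promoter, from 250 bases before to 50 after the start in GRCm38.p6, for 40 of the 50 genes. The E2F letters searched were TTTCCCGC, TTTGGCGC, TTTCGCGC and TTTGCCGC on both strands, and 16 of the 40 genes held at least 1 of them, or 40.0%. Among 7696 tested genes with a promoter in the table the share was 5.11%. The match was in 4 of 5 MCM promoters, 4 of 7 polymerase and primase promoters and 3 of 5 licensing promoters, in 1 of 5 clamp and clamp loader promoters, 1 of 4 for chromatin and histone supply, 1 of 4 for G1/S regulators, 1 of 3 for GINS, Cdc45 and Mcm10, 1 of 3 for flap, ligase and uracil removal and 0 of 4 for nucleotide supply. Another 2 motifs, the CCAAT box (CCAAT) and the CHR element (TTTGAA or TTCGAA), were in 57.5% and 20.0% of the members' promoters, against 43.4% and 15.8% of those of tested genes. Mitosis genes had the other pattern, with E2F letters in 3.85% and CHR letters in 80.8% of 26 promoters. A match is a description of these letters and not a bound site. The 5 promoters below show genes with and without a match, with E2F letters in capitals. Mcm5 on the plus strand, at chr8:75109259-75109558, and Mcm7 on the minus strand, at chr5:138171834-138172133, each hold 2 matches, which overlap by their ends in Mcm5. Gins3, at chr8:95633309-95633608 on the plus strand, holds 1. Ccne1, at chr7:38107441-38107740 on the minus strand, and Pcna, at chr2:132253131-132253430 on the minus strand, hold none of these exact letters.
Mcm5: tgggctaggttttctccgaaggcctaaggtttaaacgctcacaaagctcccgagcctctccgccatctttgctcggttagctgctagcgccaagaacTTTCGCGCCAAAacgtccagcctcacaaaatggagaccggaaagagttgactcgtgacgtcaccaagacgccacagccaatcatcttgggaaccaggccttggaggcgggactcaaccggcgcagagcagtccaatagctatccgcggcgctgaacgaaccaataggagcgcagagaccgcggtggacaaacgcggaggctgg
Mcm7: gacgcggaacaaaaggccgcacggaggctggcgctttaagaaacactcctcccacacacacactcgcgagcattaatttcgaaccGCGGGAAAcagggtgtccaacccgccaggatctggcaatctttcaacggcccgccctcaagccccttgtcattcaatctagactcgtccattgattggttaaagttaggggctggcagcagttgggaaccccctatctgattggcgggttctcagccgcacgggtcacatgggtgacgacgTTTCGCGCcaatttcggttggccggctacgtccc
Gins3: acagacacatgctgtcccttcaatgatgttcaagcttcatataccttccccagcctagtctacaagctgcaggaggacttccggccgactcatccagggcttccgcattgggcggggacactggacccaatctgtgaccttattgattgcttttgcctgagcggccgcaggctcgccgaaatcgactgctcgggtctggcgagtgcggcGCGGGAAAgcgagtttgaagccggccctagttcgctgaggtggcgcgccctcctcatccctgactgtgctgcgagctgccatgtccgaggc
Ccne1: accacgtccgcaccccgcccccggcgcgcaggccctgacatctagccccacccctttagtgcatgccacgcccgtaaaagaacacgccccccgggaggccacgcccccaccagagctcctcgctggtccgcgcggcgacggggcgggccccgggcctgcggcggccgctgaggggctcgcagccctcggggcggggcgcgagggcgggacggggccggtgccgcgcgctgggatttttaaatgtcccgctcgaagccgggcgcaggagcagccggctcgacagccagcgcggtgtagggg
Pcna: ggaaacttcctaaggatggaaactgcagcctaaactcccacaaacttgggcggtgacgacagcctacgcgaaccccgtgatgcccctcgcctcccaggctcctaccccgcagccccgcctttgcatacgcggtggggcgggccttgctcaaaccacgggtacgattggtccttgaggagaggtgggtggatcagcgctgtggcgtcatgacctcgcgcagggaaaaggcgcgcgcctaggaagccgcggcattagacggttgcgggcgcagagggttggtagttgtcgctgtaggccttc

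Replication genes were mostly at higher levels in Lmnb1-/- explants, but no single one passed the test. The log2 fold change, Lmnb1-/- over wild type, was above 0 for 45 of the 50 genes, with a median of 0.34 and a range from -0.21 to 0.90. Over all 10775 tested genes 47.6% were above 0 and the median was -0.02. The 5 genes below 0 were Gins3, Rfc2, Rfc5, Ung and Mybl2. In edgeR's quasi-likelihood test 0 of 50 passed at 0.05 after Benjamini-Hochberg adjustment over all tested genes, where 0.362% of all genes passed as higher and 0.343% as lower. At an unadjusted p under 0.05 there were 16 of the 50 as higher and 0 as lower, against 6.2% and 7.43% of all genes. DESeq2 called 1 of the 50, Ccne1, and 0.696% of all genes as higher. The 2 groups' CPM ranges did not overlap for 8 of the 50, all higher in Lmnb1-/-, which were Mcm7, Prim2, Pcna, Fen1, Chaf1a, Slbp, Ccne2 and Mybl1. Over all tested genes 6.36% were separated in that direction and 6.92% in the other. These are bulk libraries, in which more cells in S phase and more RNA per cell cannot be told apart.

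**Figure D1:**
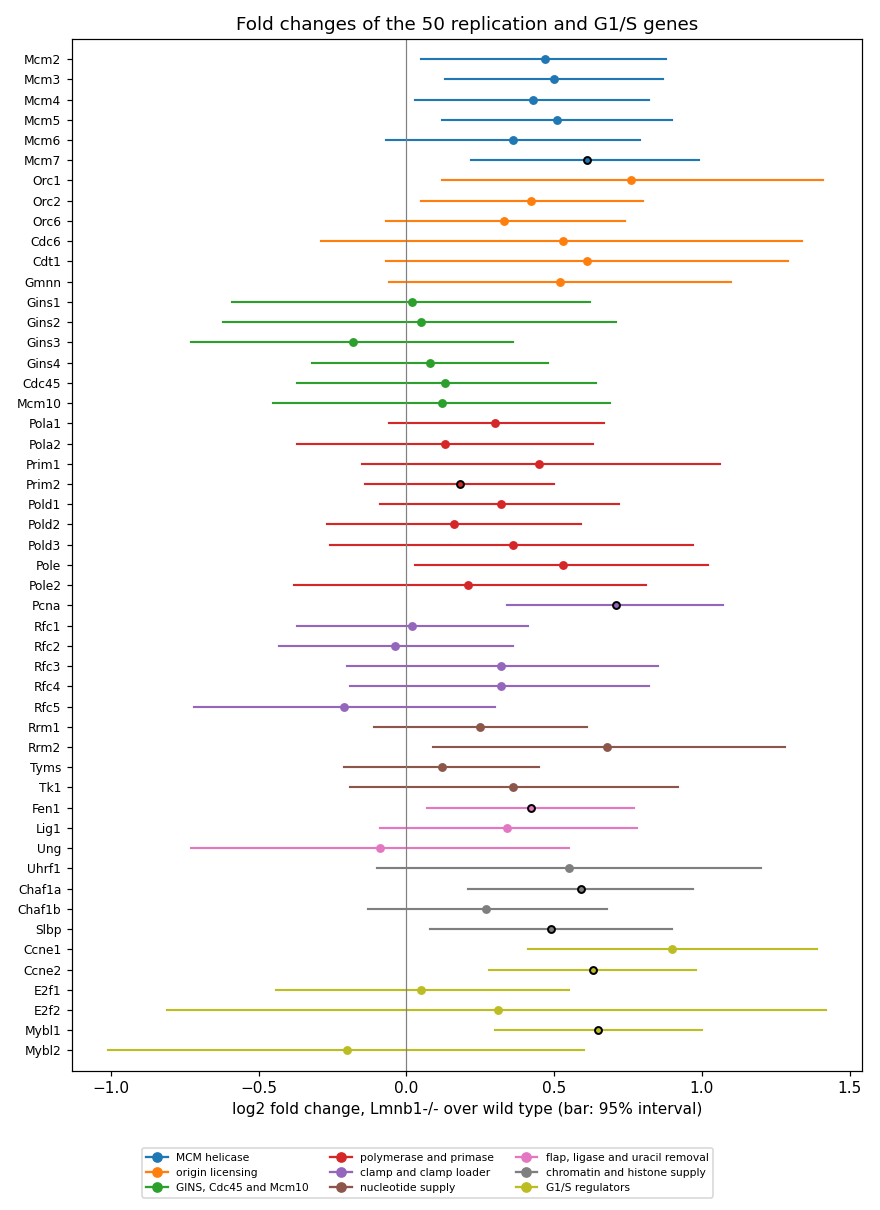
Log2 fold change of each of the 50 genes, Lmnb1-/- over wild type, with its 95% interval from edgeR's quasi-likelihood fit, coloured by the gene's role. Points with a black rim mark the 8 genes whose CPM ranges did not overlap between groups, and 45 of the points lie above 0.

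Wild type replicate 1 set much of the spread. In 44 of the 50 genes it was the highest of the 4 wild type libraries, against 26.3% of all tested genes, and in 16 it was the highest of all 7, against 13.7%. Wild type replicate 2 was the lowest of all 7 in 36 of the 50, against 21.4%. Centred on each gene's mean log2 CPM, the median over the 50 genes was 0.32, 0.20 and 0.14 in Lmnb1-/- replicates 1 to 3, against 0.30, -0.56, -0.33 and -0.11 in wild type replicates 1 to 4. Wild type replicate 1 therefore stood among the Lmnb1-/- libraries, and the other wild type libraries stood below them. The summed level of all 50 genes was 2930 ± 238 CPM in Lmnb1-/- (SD, n = 3) and 2240 ± 550 CPM in wild type explants (SD, n = 4). Smooth muscle and pericyte markers moved with the groups in the other direction, with wild type replicate 1 the lowest of its group at 10800 CPM. Acta2 and Tagln made most of that sum, at 4850 and 5080 CPM. Of 7 tested markers 4 passed as lower, where 0.343% of all tested genes did. The summed epicardial markers were also lowest in wild type replicate 1 within its group, at 2150 CPM, but single markers differed. Within the wild type group Msln, Upk3b and Gpm6a were lowest there, while Tbx18 and Krt19 were highest there. Wt1, Tcf21, Aldh1a2, Bnc1 and Sema3d were lowest in wild type replicate 3. The part of smooth muscle, pericyte and epicardial markers in the levels of replication genes was not tested.

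**Figure D2:**
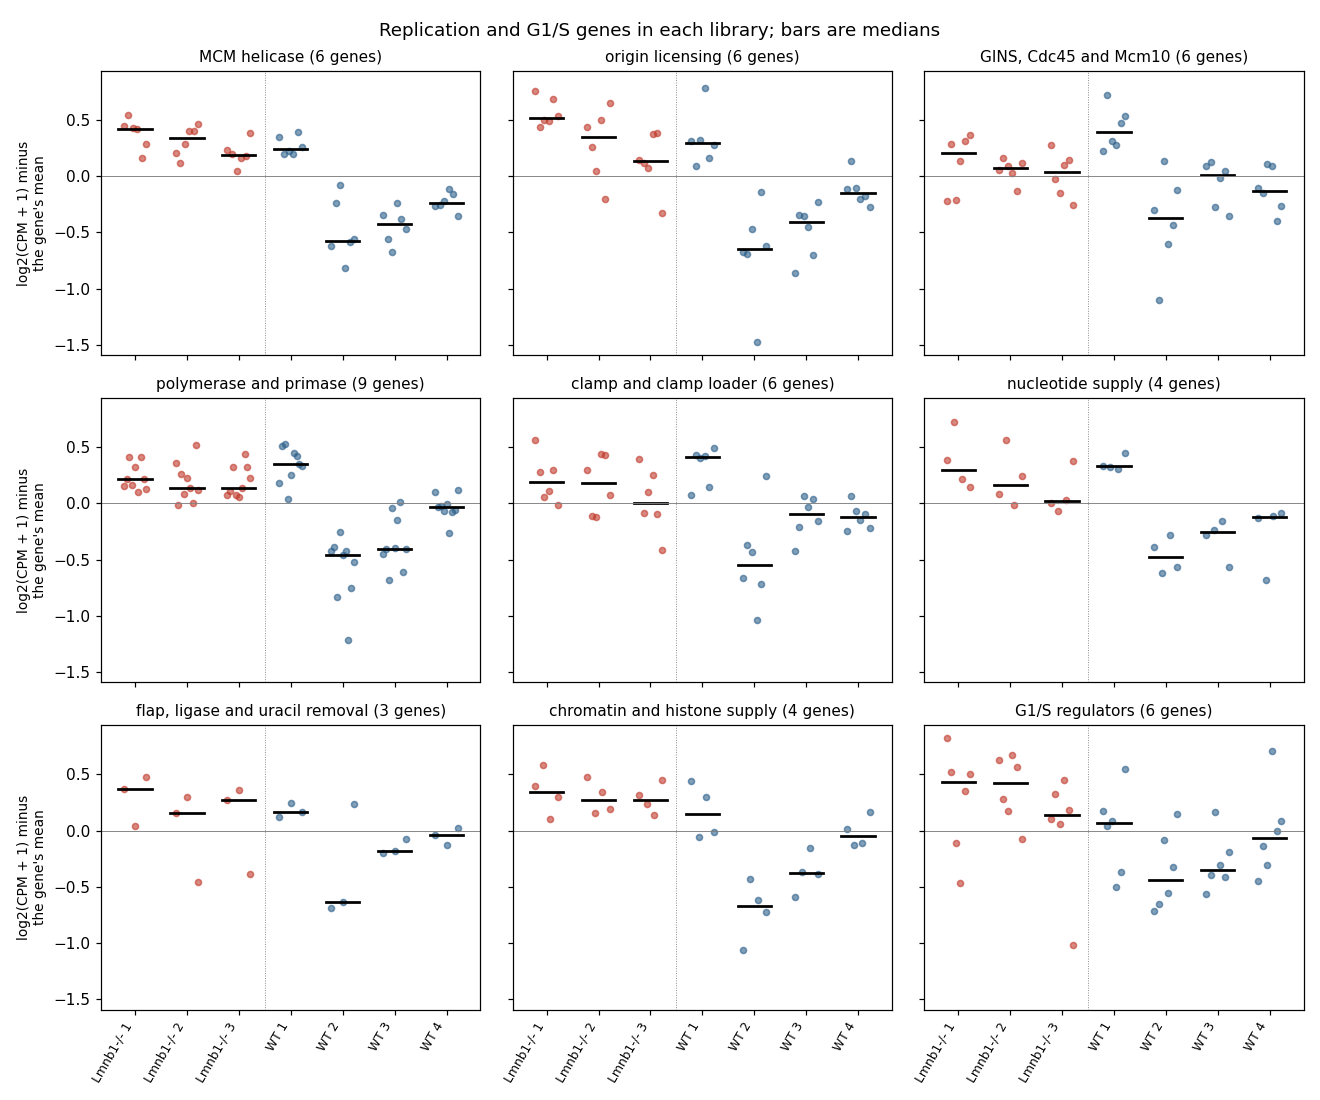
Log2(CPM + 1) of each gene minus its own mean over the 7 libraries, by role, with Lmnb1-/- libraries in red and wild type libraries in blue. Bars are medians, and in each of the 9 panels the bar of wild type replicate 1 is the highest of the wild type libraries.

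Without wild type replicate 1, 9 of the 50 genes passed as higher in edgeR's quasi-likelihood test, where 1.06% of all genes did. The 9 were Mcm2, Mcm3, Mcm5, Mcm6, Mcm7, Pcna, Rrm2, Ccne1 and Ccne2, and the median over the 50 genes was 0.51. That library was singled out after its values were seen, as the highest wild type library in 44 of the 50 genes. Leaving it out was therefore bound to raise the fold changes of those genes, and the 9 are not separate support. No gene of the 50 passed on leaving out any other single library, with medians from 0.25 without wild type replicate 2 to 0.38 without Lmnb1-/- replicate 3. Within male libraries, which compare the Lmnb1-/- libraries with wild type replicates 2 and 4, the median was 0.51 and Mcm7 passed, where 0.273% of all genes did as higher. With sex as a covariate, which rests on the same wild type libraries, the median was 0.52 and 0 of 50 passed. Wild type replicate 3, the other female library, had a centred median of -0.33, against 0.30 in wild type replicate 1.

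The library number that each table carries places wild type replicate 1 next to Lmnb1-/- replicate 1, and wild type replicate 4 between Lmnb1-/- replicates 2 and 3. The labels do not say what the number stands for. Between the neighbours Lmnb1-/- replicate 1 and wild type replicate 1, 24 of the 50 genes were higher in Lmnb1-/-, with a median difference of -0.02 in log2 CPM. For all tested genes that share was 48.5%. Between the mean of Lmnb1-/- replicates 2 and 3 and wild type replicate 4, 44 of the 50 were higher in Lmnb1-/-, with a median difference of 0.31, against 49.4% of all tested genes. The median over the 50 genes was thus above 0 in the set with wild type replicate 4 and near 0 in the set with wild type replicate 1. By role the values were not alike, and differences between roles were not tested. Origin licensing genes were higher in Lmnb1-/- for 5 of 6 between the neighbours numbered 1, with a median difference of 0.31, and for 6 of 6 in the other set, with a median of 0.34. GINS genes, Cdc45 and Mcm10 were higher for 0 of 6, with a median of -0.31, and for 4 of 6, with a median of 0.21. With these number groups as a block, the median of the 50 genes was 0.14, 38 were above 0 and 0 passed, where 0.371% of all genes passed as higher. Wild type replicates 2 and 3 have no Lmnb1-/- neighbour and add nothing to the fold change in that fit.

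**Figure D3:**
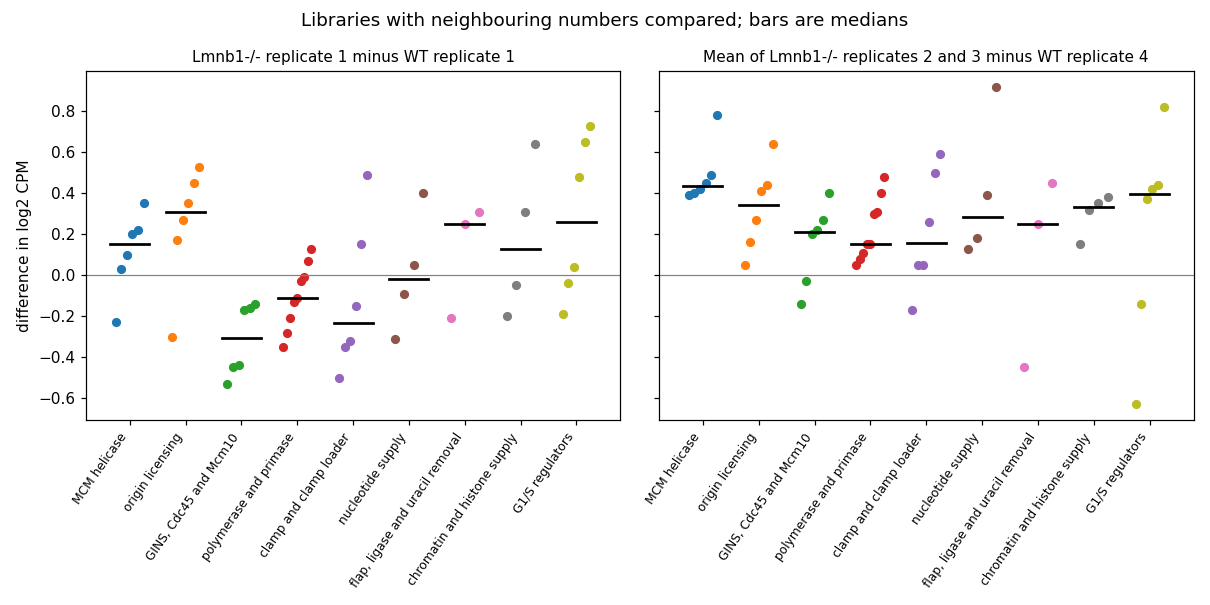
Difference in log2 CPM, Lmnb1-/- minus wild type, for each of the 50 genes between libraries with neighbouring numbers, by role, with bars for medians. On the left the GINS genes lie below 0 and the MCM and licensing genes mostly above, and on the right 44 of 50 genes lie above 0.

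The MCM helicase genes were all higher, with log2 fold changes from 0.36 to 0.61 and a median of 0.48. In edgeR's test 5 of the 6 had an unadjusted p under 0.05, where 6.2% of all tested genes did as higher. With library numbers as a block the median of the MCM genes was 0.32. Their levels summed to 842, 790 and 730 CPM in Lmnb1-/- replicates 1 to 3, against 771, 460, 473 and 547 CPM in wild type replicates 1 to 4. Each Lmnb1-/- library but the third thus lay above all wild type libraries, and the third lay below wild type replicate 1. Mcm7, encoding a ring subunit, was at 80.7, 91.4 and 86.3 CPM in Lmnb1-/- replicates 1 to 3, against 79.2, 44.4, 47.4 and 51.4 CPM in wild type replicates 1 to 4. The ranges did not overlap, though wild type replicate 1 lay just below the lowest Lmnb1-/- library. Mcm7 had a log2 fold change of 0.61 (SE 0.18, edgeR adjusted p = 0.152). Mcm5 read 170, 168 and 142 CPM in Lmnb1-/- libraries, against 145, 71.3, 107 and 117 CPM in wild type libraries. Here wild type replicate 1 exceeded Lmnb1-/- replicate 3, and the log2 fold change was 0.51 (SE 0.18, edgeR adjusted p = 0.247). Mcm3, another subunit of the ring, had 169, 126 and 133 CPM in Lmnb1-/- libraries, against 133, 98.1, 78.3 and 96.6 CPM in wild type libraries, a log2 fold change of 0.50 (SE 0.17, edgeR adjusted p = 0.233). Mcm2, Mcm4 and Mcm6 had log2 fold changes of 0.47, 0.43 and 0.36. Between the neighbours numbered 1 the MCM genes were still higher in Lmnb1-/- for 5 of 6, with a median difference of 0.15, and in the other set for 6 of 6, with a median of 0.43. Mcm7 shares exon sequence with Ap4m1 and Cops6 on the opposite strand, over 10.8 and 2.16% of its exons, and the libraries were not stranded. In addition, 37.7% of its counts were in the tables' other count column, and with both columns added its log2 fold change was 0.58.

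Origin licensing genes were likewise all above 0, with a median of 0.52 and a range from 0.33 to 0.76. Orc1, the ATPase subunit of the origin recognition complex whose level varies through the cell cycle, was at 24.1, 19.1 and 15.4 CPM in Lmnb1-/- libraries, against 17.4, 8.27, 7.15 and 12.7 CPM in wild type libraries. Only wild type replicate 1 reached into the Lmnb1-/- range. The log2 fold change of Orc1 was the highest of this group, 0.76 (SE 0.30, edgeR adjusted p = 0.285), from 8 to 75 counts a library. Orc2, a core subunit, had 107, 94.8 and 85.8 CPM in Lmnb1-/- libraries, against 83.9, 48.6, 62.1 and 86.9 CPM in wild type libraries, where replicate 4 overlapped. Its log2 fold change was 0.42 (SE 0.17, edgeR adjusted p = 0.312), and 24.0% of its exons overlap Nif3l1 on the opposite strand. Gmnn encodes geminin, which binds CDT1 and blocks new licensing in S and G2 phase. Its level was 28.9, 31.4 and 15.4 CPM in Lmnb1-/- libraries, against 23.9, 12.4, 16.6 and 16 CPM in wild type libraries, and Lmnb1-/- replicate 3 lay below 3 wild type libraries. Gmnn had a log2 fold change of 0.52 (SE 0.27, edgeR adjusted p = 0.422). Cdt1, its binding partner, Cdc6 and Orc6 had log2 fold changes of 0.61, 0.53 and 0.33. For Cdc6 the wild type libraries ranged from 4.13 CPM in replicate 2, on 4 counts, to 23.5 CPM in replicate 1.

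The genes that turn the loaded ring into an active helicase had a median log2 fold change near 0 over all libraries. For the GINS genes, Cdc45 and Mcm10, log2 fold changes ran from -0.18 to 0.13 around a median of 0.06, and none had an unadjusted p under 0.05. The group summed to 132, 119 and 118 CPM in Lmnb1-/- libraries, against 159, 84.7, 112 and 107 CPM in wild type libraries, so wild type replicate 1 was the highest of all 7. It was the highest of all 7 in 5 of these 6 genes. Cdc45, whose protein bridges MCM and GINS, was at 30.2, 21.9 and 26.7 CPM in Lmnb1-/- libraries, against 33.9, 17.6, 24.9 and 18.1 CPM in wild type libraries. The groups overlapped throughout, with a log2 fold change of 0.13 (SE 0.23, 95% interval -0.37 to 0.64, edgeR adjusted p = 0.839). Mcm10, an initiation factor unrelated to the ring subunits in spite of its name, read 23.5, 19.6 and 14.9 CPM in Lmnb1-/- libraries, against 26.5, 16.5, 13.9 and 14.8 CPM in wild type libraries. Its log2 fold change was 0.12 (SE 0.26, 95% interval -0.45 to 0.69, edgeR adjusted p = 0.879). Gins3, a GINS subunit, had 10.3, 12.9 and 10.8 CPM in Lmnb1-/- libraries, against 15.2, 13.4, 9.79 and 13.1 CPM in wild type libraries. It was the only gene of this group below 0, at -0.18 (SE 0.25, 95% interval -0.73 to 0.36, edgeR adjusted p = 0.788). The upper bounds of the 6 intervals ran from 0.36 for Gins3 to 0.71 for Gins2, and the difference between these genes and the MCM genes was not tested. Without wild type replicate 1 the median of these 6 genes was 0.27, and within male libraries it was 0.29, against 0.67 and 0.64 for the MCM genes. Gins1, Gins2 and Gins4 had log2 fold changes of 0.02, 0.05 and 0.08, and 70.7% of the exons of Gins2 overlap Gse1 on the opposite strand.

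Polymerase and primase genes were all above 0, with a median of 0.30 and a range from 0.13 to 0.53. Their sum was 344, 351 and 332 CPM in Lmnb1-/- libraries, against 367, 202, 227 and 289 CPM in wild type libraries. The Lmnb1-/- libraries lay close together, and wild type replicate 1 was above them all. Pole, the catalytic subunit of the leading strand polymerase epsilon, was at 51.5, 63.4 and 55.5 CPM in Lmnb1-/- libraries, against 56.5, 25.8, 28.6 and 42.2 CPM in wild type libraries. The log2 fold change of Pole was 0.53 (SE 0.23, edgeR adjusted p = 0.341), and only wild type replicate 1 overlapped. Pola1, the catalytic subunit of polymerase alpha, which extends primers, had 78.8, 91.4 and 74.5 CPM in Lmnb1-/- libraries, against 80.5, 52.7, 51.6 and 76.3 CPM in wild type libraries. Wild type replicates 1 and 4 both overlapped, with a log2 fold change of 0.30 (SE 0.17, edgeR adjusted p = 0.463). Pold1, the catalytic subunit of the lagging strand polymerase delta, read 41.5, 38.7 and 34.4 CPM in Lmnb1-/- libraries, against 39.6, 23.8, 24.9 and 32.9 CPM in wild type libraries. For Pold1 the log2 fold change was 0.32 (SE 0.19, edgeR adjusted p = 0.489). Prim1 and Prim2 encode the primase subunits and had log2 fold changes of 0.45 and 0.18. Prim2 had ranges that did not overlap, 38.0 to 40.5 CPM in Lmnb1-/- and 30.0 to 37.0 CPM in wild type libraries. The accessory subunits Pola2, Pold2, Pold3 and Pole2 had log2 fold changes of 0.13, 0.16, 0.36 and 0.21. Between the neighbours numbered 1, 2 of these 9 genes were higher in Lmnb1-/-, and in the other set 9 of 9 were.

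For the clamp and its loader the median log2 fold change was 0.17, and Pcna had the highest value of these genes. Pcna, the sliding clamp, was at 66.6, 55 and 59.1 CPM in Lmnb1-/- libraries, against 47.0, 27.9, 33.1 and 37.5 CPM in wild type libraries, and the groups did not overlap. Pcna had a log2 fold change of 0.71 (SE 0.17, 95% interval 0.34 to 1.07), with the smallest p of the 50 genes, 0.00111, and an edgeR adjusted p of 0.0837. Pcna has close copies in the genome, and 68.2% of its counts were in the other count column. With both columns added the log2 fold change was 0.59 (edgeR adjusted p = 0.15). The loader genes, which encode the RFC complex that opens the clamp around DNA, had log2 fold changes of 0.02 for Rfc1, -0.04 for Rfc2, 0.32 for Rfc3, 0.32 for Rfc4 and -0.21 for Rfc5. Rfc3 was at 30.9, 39.3 and 34.4 CPM in Lmnb1-/- libraries, against 38.7, 13.4, 27.9 and 25.7 CPM in wild type libraries (SE 0.24, edgeR adjusted p = 0.601). Rfc4 had 21.9, 24.1 and 16.4 CPM in Lmnb1-/- libraries, against 19.6, 10.3, 18.1 and 16.4 CPM in wild type libraries (SE 0.24, edgeR adjusted p = 0.592). In both the groups overlapped, and the difference between Pcna and the loader genes was not tested.

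Nucleotide supply genes had log2 fold changes from 0.12 to 0.68 with a median of 0.31. Rrm2, the regulated small subunit of ribonucleotide reductase, which makes deoxyribonucleotides, was at 96.1, 85.8 and 55 CPM in Lmnb1-/- libraries, against 72.6, 37.2, 49.0 and 35.8 CPM in wild type libraries. Wild type replicate 1 exceeded Lmnb1-/- replicate 3, and the log2 fold change was 0.68 (SE 0.27, edgeR adjusted p = 0.307). Rrm1, the large subunit of the same enzyme, read 493, 399 and 379 CPM in Lmnb1-/- libraries, against 477, 288, 311 and 344 CPM in wild type libraries, a log2 fold change of 0.25 (SE 0.16, edgeR adjusted p = 0.533). It was the most abundant of the 50 genes also per length. Tyms and Tk1 encode enzymes of thymidylate synthesis and salvage, and their log2 fold changes were 0.12 and 0.36. Part of the counts of Rrm2, Tyms and Tk1, 14.7, 14.0 and 32.3%, was in the other count column.

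Genes that finish the lagging strand and those that repack chromatin included 3 of the 8 with separate ranges. Fen1, the flap nuclease that trims Okazaki fragments, was at 84.9, 72.9 and 79.1 CPM in Lmnb1-/- libraries, against 71.3, 40.3, 56.9 and 63.7 CPM in wild type libraries. Its ranges did not overlap, with a log2 fold change of 0.42 (SE 0.16, edgeR adjusted p = 0.281), but 78.8% of its exons overlap Gm10143 on the opposite strand. Lig1, the ligase that joins the fragments, had 27.0, 32.5 and 33.9 CPM in Lmnb1-/- libraries, against 31.3, 16.5, 23.0 and 24.0 CPM in wild type libraries, a log2 fold change of 0.34 (SE 0.20, edgeR adjusted p = 0.479). Ung, which removes uracil from DNA, was the exception of this trio at -0.09. Chaf1a, the large subunit of the histone chaperone CAF-1, was at 44.7, 33.1 and 34.9 CPM in Lmnb1-/- libraries, against 28.3, 21.7, 22.6 and 27.0 CPM in wild type libraries. All Lmnb1-/- libraries lay above all wild type libraries, with a log2 fold change of 0.59 (SE 0.18, edgeR adjusted p = 0.152), and 33.6% of its exons overlap Ubxn6 on the opposite strand. Slbp, which binds the stem-loop of replication-dependent histone messages, had 51.5, 47.7 and 57.0 CPM in Lmnb1-/- libraries, against 41.3, 24.8, 31.6 and 46.8 CPM in wild type libraries. Ranges were again separate, with a log2 fold change of 0.49 (SE 0.19, edgeR adjusted p = 0.279). For Slbp 31.6% of counts were in the other count column, and with both columns added its log2 fold change was 0.52. Uhrf1, which brings the maintenance DNA methyltransferase to new DNA, and Chaf1b had log2 fold changes of 0.55 and 0.27. In Uhrf1 wild type replicate 1, at 95.3 CPM, lay within the Lmnb1-/- range of 87.4 to 98.2 CPM. Of the counts of Uhrf1, 25.9% were in the other count column.

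Among G1/S regulators the cyclin E genes and Mybl1 had the highest log2 fold changes, from 0.63 to 0.90. Ccne1, encoding cyclin E1, the partner of CDK2 at entry into S phase, was at 70.7, 61.7 and 42.6 CPM in Lmnb1-/- libraries, against 44.8, 23.8, 26.4 and 28.7 CPM in wild type libraries. Its log2 fold change of 0.90 (SE 0.23, edgeR adjusted p = 0.10) was the largest of the 50 genes, and DESeq2 gave an adjusted p of 0.0319. Over the alternatives with edgeR the adjusted p of Ccne1 ran from 0.013 to 0.35. Ccne2, encoding cyclin E2, read 80.4, 67.9 and 69.9 CPM in Lmnb1-/- libraries, against 57.4, 35.1, 42.2 and 50.6 CPM in wild type libraries. The ranges of Ccne2 did not overlap, with a log2 fold change of 0.63 (SE 0.16, edgeR adjusted p = 0.10). Mybl1, which encodes the MYB family factor A-MYB, was at 55.3, 63.9 and 48.8 CPM in Lmnb1-/- libraries, against 33.1, 34.1, 32 and 43.0 CPM in wild type libraries. Wild type replicate 1 was not the highest of its group here, unlike in 44 of the 50 genes, and Mybl1 had a log2 fold change of 0.65 (SE 0.16, edgeR adjusted p = 0.0912). Between the neighbours numbered 1 the differences were 0.65, 0.48 and 0.73 for Ccne1, Ccne2 and Mybl1, and in the other set 0.82, 0.44 and 0.37. These 3 were thus among 22 of the 50 genes that were higher in Lmnb1-/- within both sets of neighbours. The 22 also held 5 of 6 MCM genes and 5 of 6 licensing genes. That share was not counted over all tested genes. E2f1 and E2f2, which encode activator E2F factors, had log2 fold changes of 0.05 and 0.31, and E2f2 rested on 2 to 15 counts a library. Mybl2, encoding B-MYB, was at -0.20 and at 0.11 with both count columns added, as 40.2% of its counts lay in the other column.

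**Figure D4:**
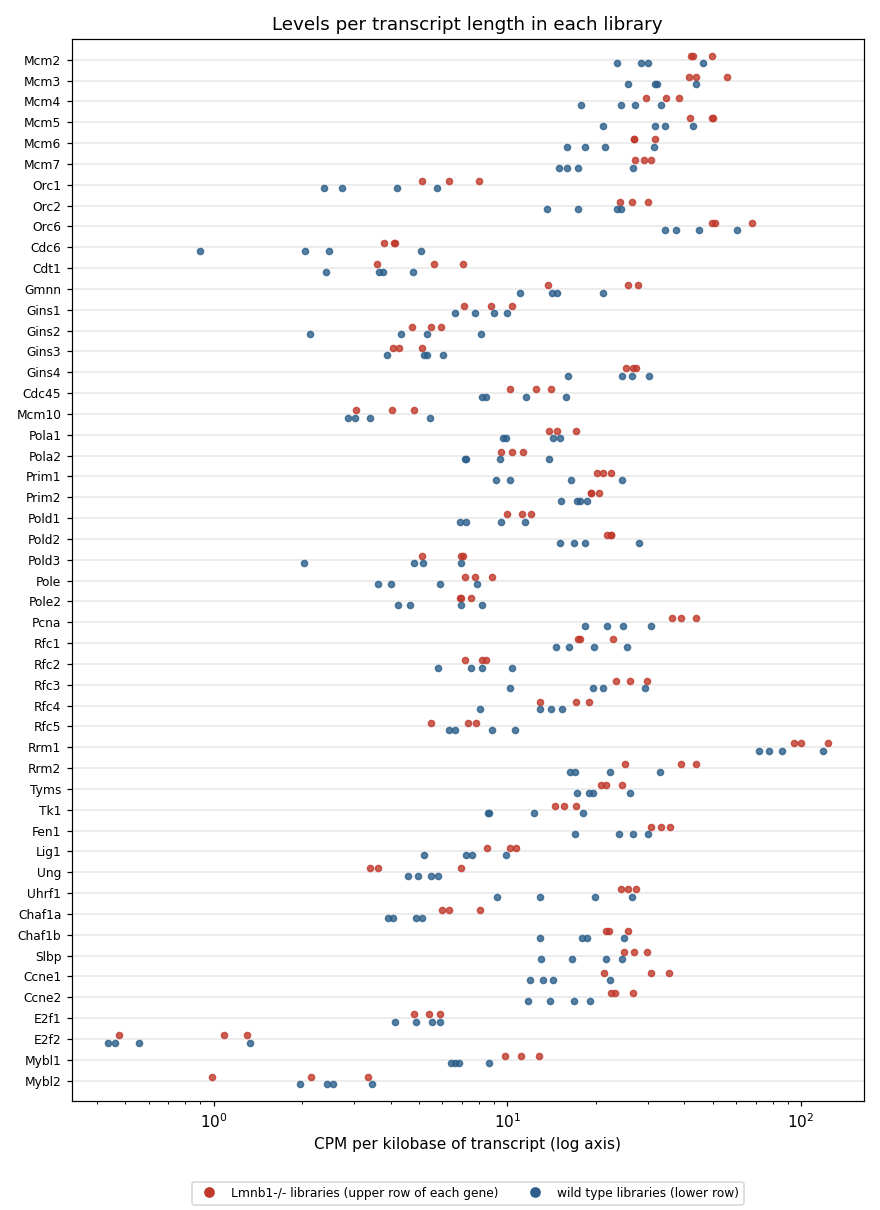
CPM per kilobase of each gene's longest protein-coding transcript, on a log axis, with 1 point for each library, Lmnb1-/- libraries above and wild type libraries below in each gene's line. Rrm1 is the highest and E2f2 the lowest, and the MCM genes lie close together.

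Levels could be compared between genes only per length, here per kilobase of the longest protein-coding transcript in a GRCm38 annotation, which need not be the model the authors counted. On that scale the MCM ring genes were within a narrow band, from 28.5 for Mcm6 to 47.3 for Mcm5 in Lmnb1-/- and from 18.8 for Mcm7 to 33.5 for Mcm3 in wild type explants, as mean CPM per kilobase. The band is close to the spread between libraries, since Mcm5 had an SD of 9.03 CPM per kilobase in wild type explants, and the level of Mcm7 is low by the counts held in the other column. The loading factors Cdc6 and Cdt1 were lower, at 4.01 and 5.42 in Lmnb1-/- and 2.62 and 3.65 CPM per kilobase in wild type explants. Rrm1 had 106 CPM per kilobase in Lmnb1-/- and 88.8 in wild type explants, against 36.0 and 22.2 for Rrm2. E2f2 was at 0.954 and 0.696 CPM per kilobase.

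Other genes of the pathway, listed by role but with earlier results of these data known, were also mostly higher without passing. Of 57 such replication and G1/S genes 55 were tested, and 0 passed in either direction. Log2 fold changes were above 0 for 47 and below 0 for 8, from -0.33 to 1.14 with 0.24 as the median. Unadjusted p-values under 0.05 were found for 11. Over all tested genes 47.6% lay above 0, and 6.2% had such a p as higher and 7.43% as lower. Recql4, Dut and Pole4 were among those with the smallest p. Recql4, a helicase that helps origins fire, was at 10.3, 9.54 and 11.8 CPM in Lmnb1-/- libraries, against 4.35, 6.20, 4.52 and 4.64 CPM in wild type libraries, and every Lmnb1-/- library was higher. Its log2 fold change was 1.14 (SE 0.30, edgeR adjusted p = 0.102). Dut, which keeps dUTP out of DNA, and Pole4, a small subunit of polymerase epsilon, had log2 fold changes of 0.73 and 0.49. E2F letters were in 34.1% of 44 promoters of this list. In the mitosis list log2 fold changes ran from -0.52 to 0.56 with a median of 0.15. There 25 of 30 genes lay above 0, 5 lay below and 0 passed. Pttg1, Ccnf, Ttk and Ndc80, those of smallest p, were at 0.56, 0.51, 0.33 and 0.35. The difference between the replication and the mitosis lists was not tested. Within the 50 genes, the median log2 fold change was 0.36 for the 16 with E2F letters, and for the 24 with a promoter but none of these letters it was 0.30, a difference that was not tested.

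**Figure D5:**
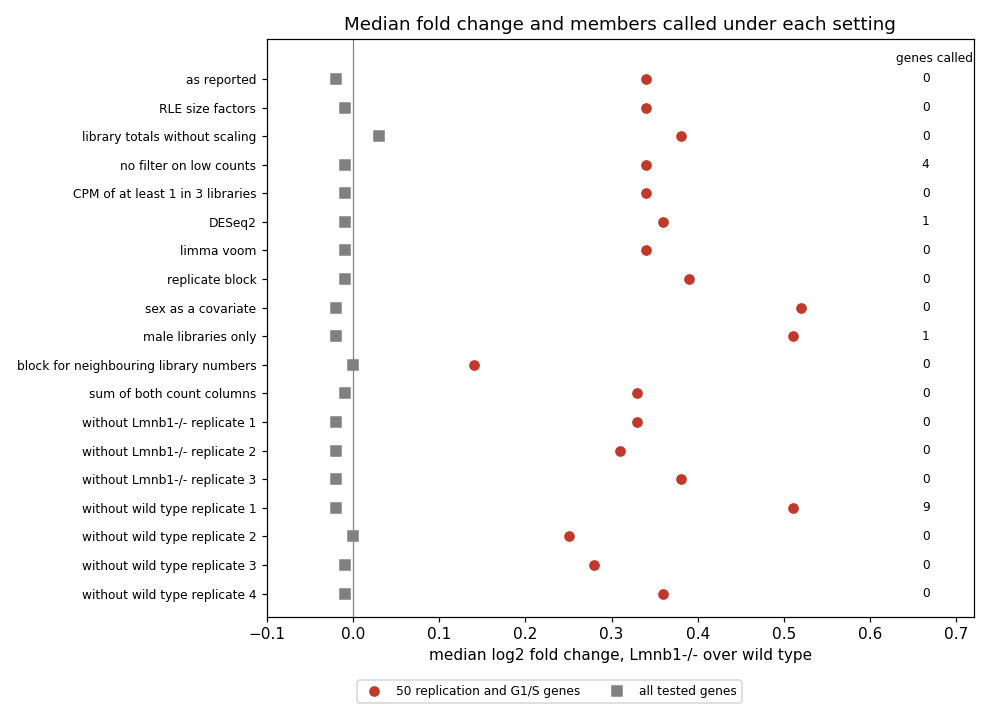
Median log2 fold change, Lmnb1-/- over wild type, of the 50 replication and G1/S genes (red) and of all tested genes (grey) under each processing setting, with the number of the 50 that passed at the right. The red medians run from 0.14 with library numbers as a block to 0.52 with sex as a covariate, and the grey ones stay near 0.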

How the data were processed

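RNA was sequenced from 7 explant libraries with the Illumina TruSeq RNA v2 kit, per the labels' protocols, and TopHat, edgeR and mm9 are named in the submitters' processing notes, without versions. Annotation and counter are not given in the sources used here. The deposited tables hold 2 unnamed columns of whole-number counts for each gene row, and the first was used. The other held 16.6 to 19.6% of all counts and was read as reads matching several places, an inference from genes with close copies. It was used only where stated. The kit does not mark strand. Rows that repeat a gene name (949, with 0.0831% of counts) were kept apart.

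Genes were filtered with filterByExpr, scaled by TMM and compared in R 4.3.3 by the quasi-likelihood test of edgeR 4.0.16 (with limma 3.58.1), using robust dispersion, no covariate and Benjamini-Hochberg adjustment over all tested genes at 0.05. Standard errors are the size of the log2 fold change over the square root of its F statistic. Centred values and differences of log2 CPM use a prior count of 2. The procedure was tested on simulated data, where it recovered 16% of genes changed 1.5-fold, 64% changed 2-fold and 98% changed 3-fold. Of 146 calls there 11 were false. Most genes with a change of 1.5-fold thus did not pass, and smaller changes were not simulated. DESeq2 1.42.0, limma voom and other settings were alternatives. The members, lists and alternatives were chosen with earlier results of these data known. Members given library by library are, in each of 9 roles, the 3 of smallest p (2 where a role has 3 or 4 genes), and lists name the 4 of smallest p, of which 1 is not reported here. Other members named with values, and wild type replicates 1 and 2, were singled out after their values were seen. Promoters and lengths are from GRCm38, so no position of a gene in mm9 is given. No 2 libraries of a group agreed within sampling noise, with chi-square per degree of freedom of 2.26 to 7.94.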

Additional observations from a re-analysis of the deposited data

Results flagged for a closer look

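The E2f2 level of wild type replicate 4, 6.33 CPM, stood apart from the other wild type libraries, which lay between 2.07 and 2.64 CPM. It rests on 15 counts, against 2 to 7 in the others. Of 50 genes checked in the 4 wild type libraries this was the only 1 set apart by the test of a gap against the range. Chance does so in about 1 of 20 groups. Lmnb1-/- replicates 2 and 3, neighbours of wild type replicate 4 by library number, had E2f2 at 6.17 and 5.14 CPM. Lmnb1-/- replicate 1 had 2.25 CPM.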

How the results depend on the processing

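The number of the 50 genes that passed as higher was 0 and became 4 with no filter on low counts (Ccne1, Ccne2, Mybl1 and Pcna), 1 with DESeq2 (Ccne1), 1 within male libraries (Mcm7) and 0 to 9 on leaving out each library, the 9 without wild type replicate 1. It was 0 with RLE size factors, library totals without scaling, a minimum of 1 CPM in 3 libraries, limma voom, sex as a covariate, the block of neighbouring library numbers and both count columns. None passed as lower in any of these. Over all genes 76 passed, 175 with DESeq2, 38 with sex as a covariate, 44 with both columns, and 3 to 279 on leaving out each library. With no filter 180 of 16754 tested genes passed, 83 of them as higher. The median of the 50 genes stayed above 0 throughout, between 0.14 and 0.52. Mcm10 ran from -0.06 without Lmnb1-/- replicate 1, over 0 without wild type replicate 3, to 0.40 without wild type replicate 1. The cause of these shifts was not tested. Deviations from the group means correlated at r = 0.26 between the libraries numbered 1, and at -0.16 and -0.09 between those numbered 2 and 3. Not every pair was above 0.1, so the numbers were not taken to pair the samples. With the replicate block the median was 0.39, 0 of 50 passed and 77 genes passed in all. Depth limits the low genes, as E2f2, Cdc6 and Pold3 had 2, 4 and 6 counts in wild type replicate 2, and 49 of the 50 genes could be tested without wild type replicate 4.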
